A study of Mus musculus with 9 samples.

Results

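Expression of the glycolytic enzymes, glucose and lactate transporters and hypoxia target genes was followed in 9 libraries of sorted mouse tumour cells. Of 39 listed genes, 38 were found by their symbol among the 23799 genes of the deposited table. The remaining gene, Pkm, was carried under its older symbol Pkm2 (ENSMUSG00000032294), so its values are given beside the others and it is left out of the counts. The breast cancer (BC) libraries held GFP-sorted cells of tumours derived from 4T1-eGFP, a labelled form of 1 mouse mammary carcinoma line, at 28 days: BC primary tumour 1 and 5, and BC lung metastasis 4 and 6. The other 5 libraries held YFP-sorted cells of pancreatic ductal adenocarcinoma (PDAC), from mice that all carried p48-Cre, a p53F/+ allele, a KrasL/+ allele and the ROSA-LSL-YFP reporter. p48, also called Ptf1a, is a transcription factor of the pancreatic lineage, and its Cre switches on the reporter in that lineage. The number 1 libraries (primary tumour, liver metastasis and lung metastasis) came from a mouse aged 25.67 weeks whose genotype label also names SIRT6F/F, and the number 5 libraries (primary tumour and liver metastasis) from a mouse aged 28.95 weeks without that allele in its label. Age and the SIRT6 allele therefore cannot be told apart from the mouse.

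Glycolysis turns glucose into pyruvate in the cytoplasm: facilitative transporters bring glucose in, hexokinases trap it as a phosphate, phosphofructokinase commits it to breakdown, and lactate dehydrogenase regenerates the NAD+ the pathway needs, after which lactate leaves the cell through monocarboxylate transporters. When oxygen is low, the prolyl hydroxylases of the Egln family stop marking the HIF alpha subunits for destruction by the Vhl complex. HIF then binds the short cores ACGTG and GCGTG in promoters and enhancers of most of the genes described here. Tumour cells commonly express these genes at high levels, and Car9, Vegfa and Lox are among those studied most in tumours and metastases.

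The HIF core motif was searched in the promoters of the listed genes as a description of what they share in sequence. RefSeq promoters (build GRCm38.p6, 250 bases before each annotated start) were matched for 35 of the 39 genes, with 50 start sites. The match was by symbol, except that Ero1l was matched through a synonym as Ero1a. Slc2a3, Ndrg1, Lox and Plod2 were not matched. At least 1 core (ACGTG or GCGTG, or CACGT or CACGC on the other strand, overlapping matches counted once) stood in a promoter of 31 of 35 genes (88.6%), and the same was true of 41.5% of the 27025 genes in the promoter table. The form ACGTG alone stood in 20 of 35 genes (57.1%) against 18.5% of all genes, and at least 2 cores in 20 of 35 (57.1%) against 15.2%. The ACGTG form overlaps the E-box CACGTG, which other factors bind. The listed genes' promoters were also richer in G and C, with a median of 62.2% against 52.4% and a median of 15 CG pairs against 6, and the part of base composition in the motif shares was not tested. The promoters below are those of 4 genes on which the comparisons turn (lactate exporter Slc16a3, glucose transporter Slc2a1, carbonic anhydrase Car9 and collagen prolyl hydroxylase P4ha1), with Car12 shown because its window holds no core. Capitals mark the cores, and a core printed as CACGT or CACGC lies on the opposite strand to the gene. All 5 genes are on the plus strand, and the sequences end at the base before the start site. They are chr11:120948817-120949066 (Slc16a3), chr4:119108495-119108744 (Slc2a1), chr4:43506776-43507025 (Car9), chr10:59323046-59323295 (P4ha1) and chr9:66713436-66713685 (Car12).
Slc16a3: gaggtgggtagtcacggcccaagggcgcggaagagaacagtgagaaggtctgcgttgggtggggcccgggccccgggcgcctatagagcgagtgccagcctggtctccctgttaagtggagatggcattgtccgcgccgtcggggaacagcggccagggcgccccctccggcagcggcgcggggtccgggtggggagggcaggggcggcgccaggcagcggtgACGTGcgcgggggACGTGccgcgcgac
Slc2a1: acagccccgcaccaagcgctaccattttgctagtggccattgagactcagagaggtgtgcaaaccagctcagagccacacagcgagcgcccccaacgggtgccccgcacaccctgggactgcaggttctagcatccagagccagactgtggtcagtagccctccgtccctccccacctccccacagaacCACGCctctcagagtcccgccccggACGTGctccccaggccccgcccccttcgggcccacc
Car9: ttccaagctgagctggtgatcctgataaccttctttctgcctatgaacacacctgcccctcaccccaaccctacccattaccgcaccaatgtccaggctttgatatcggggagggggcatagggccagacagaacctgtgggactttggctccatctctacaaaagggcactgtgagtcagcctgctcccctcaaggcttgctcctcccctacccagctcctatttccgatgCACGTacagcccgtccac
P4ha1: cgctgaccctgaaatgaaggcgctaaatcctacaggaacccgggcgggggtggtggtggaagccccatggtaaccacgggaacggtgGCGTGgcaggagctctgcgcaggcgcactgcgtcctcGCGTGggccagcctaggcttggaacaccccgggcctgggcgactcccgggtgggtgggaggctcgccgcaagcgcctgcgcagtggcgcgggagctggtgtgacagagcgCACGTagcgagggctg
Car12: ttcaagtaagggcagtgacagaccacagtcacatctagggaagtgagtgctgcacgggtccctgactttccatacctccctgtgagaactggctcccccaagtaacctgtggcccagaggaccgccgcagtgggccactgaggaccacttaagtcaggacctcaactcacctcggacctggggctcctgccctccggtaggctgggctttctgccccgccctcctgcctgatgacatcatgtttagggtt
Counted back from the start site, the first base of each core stood at -27 and -14 in Slc16a3, at -61 and -36 in Slc2a1, at -18 in Car9, and at -163, -126 and -16 in P4ha1. A match is a string of letters and says nothing on whether a factor was bound.

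The libraries differed widely in depth and in the RNA of other cell types. The values with their gene lengths gave about 21300200 (PDAC lung metastasis 1) to 127960000 (BC primary 5) reads on genes, and between 9530 and 20478 genes were above 0. The 3 libraries with the fewest genes above 0 were PDAC lung metastasis 1 (9530), PDAC primary 5 (10410) and BC lung metastasis 6 (10938). Haemoglobin took 0.00607 to 0.107% of the summed RPKM in the BC libraries and 0.0582 to 38.9% in the PDAC libraries. The 8 tumour epithelial markers (Epcam, keratins and others) summed to 2223 to 15975 RPKM in 7 libraries, but to 241 RPKM in PDAC liver metastasis 5 and 132 RPKM in PDAC lung metastasis 1, and Cdh1, which encodes E-cadherin, was listed at 0 in PDAC lung metastasis 1 and BC lung metastasis 6. In these bulk samples, fewer cells of a type and less RNA per cell cannot be told apart.

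The same 3 libraries held most of the zeros among the 38 genes. PDAC lung metastasis 1 listed 9 of the 38 at 0, BC lung metastasis 6 listed 8 and PDAC primary 5 listed 7, against 0 to 3 in each of the other libraries. At 1 RPKM or more stood 37 genes in BC primary 5 and 21 in PDAC primary 5, the highest and the lowest number. All 38 genes passed the filter for testing (at least 1 RPKM in at least 2 libraries), 15 were at 1 RPKM or more in all 9 libraries, and 6 reached that level in 5 libraries or fewer. The heat map of the 39 genes shows the split between the main glycolytic enzymes, which were high everywhere, and the hypoxia targets, which were patchy.

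**Figure D1:**
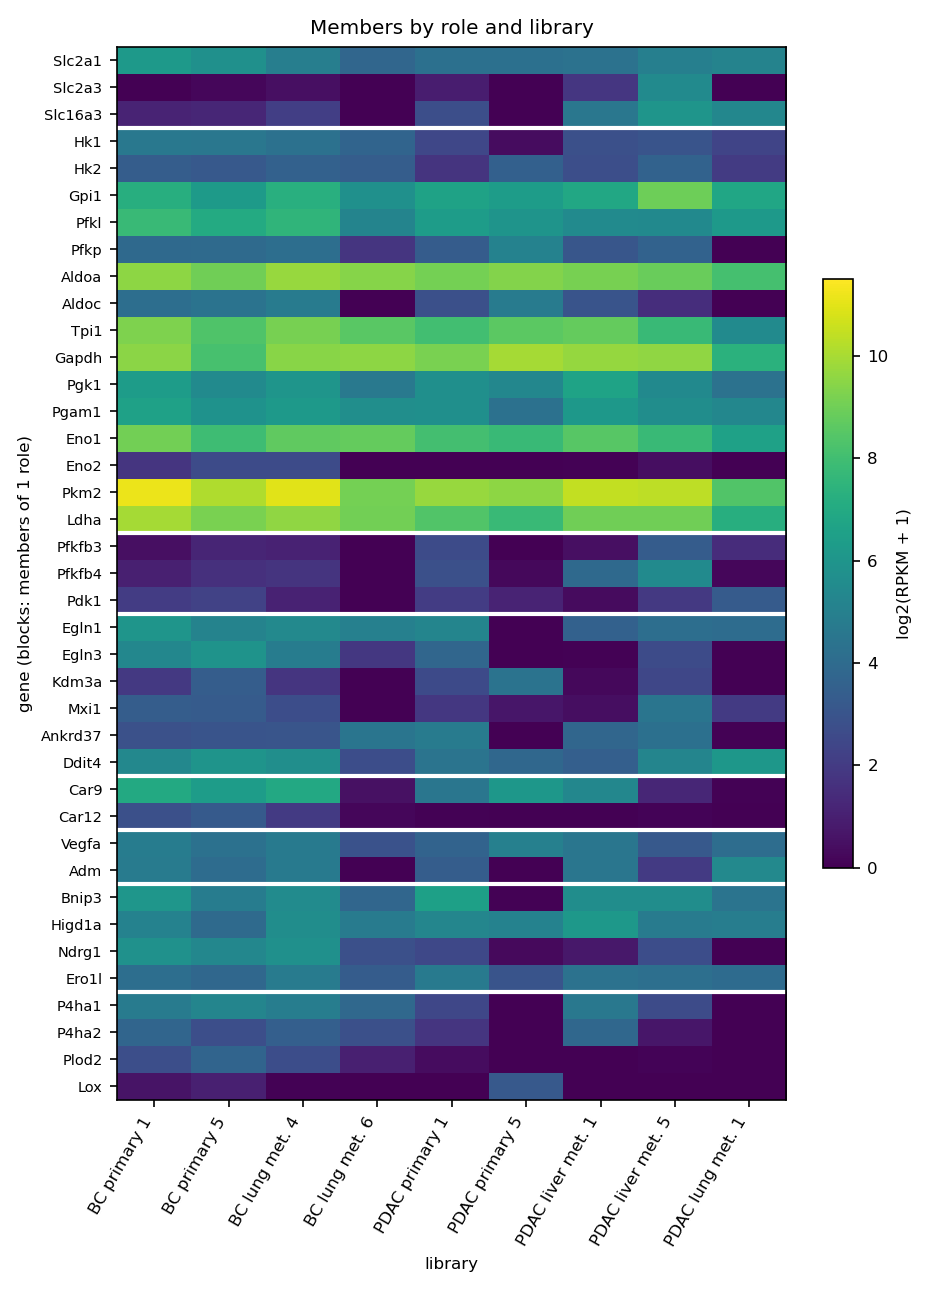
Expression of the 39 listed genes (rows, in blocks by role, Pkm as Pkm2) in 9 libraries (columns) as log2(RPKM + 1), from dark purple at 0 to yellow at the highest level. Aldoa, Gapdh, Eno1, Pkm2 and Ldha are green to yellow in every column, and the dark cells gather in PDAC primary 5, PDAC lung metastasis 1 and BC lung metastasis 6, which list 7, 9 and 8 of 38 genes at 0.

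The most abundant of the listed genes were glycolytic enzymes. Pkm2, the pyruvate kinase gene, read 2287 and 1104 RPKM in BC primary 1 and 5, against 1999 and 551 RPKM in BC lung metastasis 4 and 6. In PDAC primary 1 and 5 it read 838 and 736 RPKM, followed by 1405 and 1294 RPKM in PDAC liver metastasis 1 and 5, and 327 RPKM in PDAC lung metastasis 1. Ldha, which makes lactate from pyruvate, read 992 and 578 RPKM in the BC primaries, against 763 and 522 RPKM in BC lung metastasis 4 and 6. Its PDAC levels were 330 and 222 RPKM in primary 1 and 5, 515 and 506 RPKM in the liver metastases and 147 RPKM in the PDAC lung metastasis. Both genes were lowest in the PDAC lung metastasis and highest in BC primary 1. Aldoa, the main aldolase, read 745 and 510 RPKM in the BC primaries, against 836 and 680 RPKM in BC lung metastasis 4 and 6. Among the PDAC libraries it read 553 and 654 RPKM in primary 1 and 5, 558 and 466 RPKM in the liver metastases and 275 RPKM in the PDAC lung metastasis. Tpi1, triosephosphate isomerase, read 610 and 319 RPKM in the BC primaries, against 558 and 375 RPKM in BC lung metastasis 4 and 6. The PDAC primaries 1 and 5 read 257 and 383 RPKM, followed by 444 and 224 RPKM in the liver metastases, and 44.3 RPKM in the PDAC lung metastasis. Gapdh, which makes the NADH of glycolysis, read 716 and 282 RPKM in the BC primaries, against 704 and 749 RPKM in BC lung metastasis 4 and 6. For PDAC, the levels were 580 and 1000.04 RPKM in primary 1 and 5, 810 and 759 RPKM in the liver metastases, and 161 RPKM in the PDAC lung metastasis. These 3 enzymes, too, were lowest in the PDAC lung metastasis, and Gapdh peaked in PDAC primary 5. Among all genes of a library, Tpi1 ranked at percentile 92.9 in the PDAC lung metastasis and between 98.4 and 99.7 in the other 8. Of the less abundant enzymes, Pgk1, phosphoglycerate kinase, spanned 19.5 to 101 RPKM and Pgam1, phosphoglycerate mutase, 18.4 to 96.1 RPKM. Aldoa, Gapdh, Pgk1, Pgam1, Eno1, Ldha, Tpi1 and Pkm2 all have processed pseudogenes in the mouse genome, and how reads shared with such copies were assigned is not given in the sources used here.

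As a share of all RPKM outside haemoglobin, the 15 glycolytic enzymes with Pkm2 took 1.72 and 1.19% in BC primary 1 and 5 and 1.49 and 0.640% in BC lung metastasis 4 and 6. They took 0.630 and 0.734% in PDAC primary 1 and 5, 0.792 and 0.520% in the liver metastases and 0.229% in the PDAC lung metastasis. Both BC primaries and BC lung metastasis 4 therefore lay above all 5 PDAC libraries, while BC lung metastasis 6 lay within the PDAC range. The 18 hypoxia targets outside glycolysis took 0.148 and 0.157% in the BC primaries and 0.136% in BC lung metastasis 4, against 0.0263% in BC lung metastasis 6 and 0.0275 to 0.0633% in the PDAC libraries. For these targets BC lung metastasis 6 was the lowest of all 9 libraries, and it also listed 4 of the 18 at 0, where the other BC libraries listed none.

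**Figure D2:**
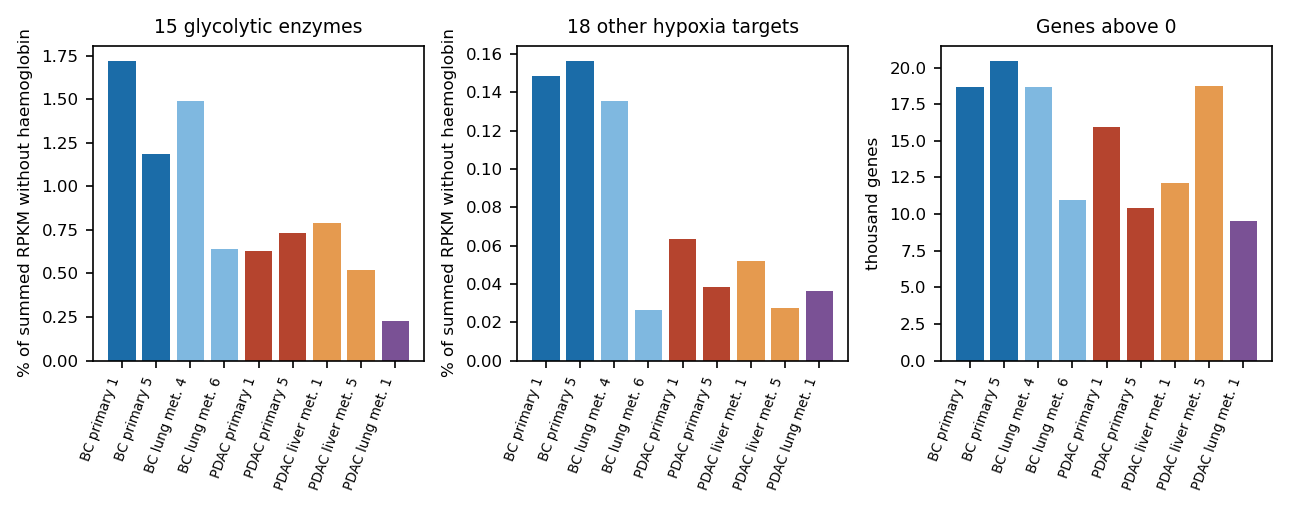
Share of all RPKM outside haemoglobin taken by the 15 glycolytic enzymes with Pkm2 (left) and by the 18 hypoxia targets outside glycolysis (middle), and the number of genes above 0 (right, axis in units of 1000 genes), 1 bar per library and no error bars. BC primary 1 and 5 and BC lung metastasis 4 stand above all PDAC libraries in the left and middle panels, and BC lung metastasis 6 falls among them for the enzymes (0.640%) and below them for the targets (0.0263%).

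Isozymes of the same step kept a fixed order in some pairs and exchanged it in others, read on the RPKM scale, which divides by gene length. Aldoa exceeded Aldoc, the brain-type aldolase, and Eno1, the common enolase, exceeded Eno2, the neuronal form, in 9 of 9 libraries. Aldoc read 16.9 and 19.6 RPKM in the BC primaries, against 26.2 and 0.00656 RPKM in BC lung metastasis 4 and 6. In PDAC primary 1 and 5 it read 6.04 and 26.2 RPKM, followed by 6.92 and 1.84 RPKM in the liver metastases, and 0 RPKM in the PDAC lung metastasis. Eno1 read 532 and 245 RPKM in the BC primaries, against 414 and 433 RPKM in BC lung metastasis 4 and 6. Its PDAC levels were 264 and 220 RPKM in primary 1 and 5, 368 and 219 RPKM in the liver metastases, and 93.7 RPKM in the PDAC lung metastasis. Eno2 read 2.44 and 5.18 RPKM in the BC primaries, against 5.15 and 0 RPKM in BC lung metastasis 4 and 6. Among the PDAC libraries it read 0.00452 and 0 RPKM in primary 1 and 5, 0.0615 and 0.345 RPKM in the liver metastases, and 0 RPKM in the PDAC lung metastasis, so it passed 1 RPKM only in the 3 BC libraries other than lung metastasis 6. Pfkl, the liver-type phosphofructokinase, exceeded Pfkp, the platelet-type, in 9 of 9. Pfkl read 224 and 130 RPKM in BC primary 1 and 5, against 186 and 35.3 RPKM in BC lung metastasis 4 and 6. The PDAC primaries 1 and 5 read 81.9 and 60.1 RPKM, followed by 44.2 and 42.7 RPKM in the liver metastases and 74.5 RPKM in the PDAC lung metastasis. Pfkp read 14.4, 14.5, 17.1 and 2.47 RPKM in the same order of BC libraries, 9.07 and 33.4 RPKM in PDAC primary 1 and 5, 7.38 and 11.3 RPKM in the liver metastases and 0.025 RPKM in the PDAC lung metastasis. In ratio, the 2 forms were closest in PDAC primary 5 and farthest apart in the PDAC lung metastasis.

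The hexokinases did not keep a fixed order. Hk1, the hexokinase of most adult cells, exceeded Hk2, the form most often raised in tumours, in 7 of 9 libraries. Hk1 read 23.3 and 22.6 RPKM in the BC primaries, against 18.3 and 12.1 RPKM in BC lung metastasis 4 and 6. For PDAC, the levels were 4.45 and 0.284 RPKM in primary 1 and 5, 5.91 and 6.97 RPKM in liver metastasis 1 and 5, and 4.07 RPKM in the PDAC lung metastasis. Hk2 read 9.58, 8.14, 10.7 and 9.46 RPKM in the BC libraries, 2.33 and 10.4 RPKM in PDAC primary 1 and 5, 5.73 and 11.3 RPKM in the liver metastases and 3.04 RPKM in the PDAC lung metastasis. The 2 exceptions were both libraries of PDAC mouse 5, in which Hk2 was the higher.

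The bifunctional regulators Pfkfb3 and Pfkfb4 set the level of fructose 2,6-bisphosphate, the activator of phosphofructokinase. Pfkfb4 was the higher in 7 of 9 libraries, Pfkfb3 only in the PDAC lung metastasis, and both were listed at 0 in BC lung metastasis 6. Pfkfb3 read 0.399 and 1.25 RPKM in the BC primaries, 1.16 RPKM in BC lung metastasis 4, 5.27 and 0.00454 RPKM in PDAC primary 1 and 5, 0.379 and 9.31 RPKM in the liver metastases and 1.73 RPKM in the PDAC lung metastasis. Pfkfb4 read 1.01 and 2.00 RPKM in the BC primaries, 2.28 RPKM in BC lung metastasis 4, 5.99 and 0.193 RPKM in PDAC primary 1 and 5, 14.2 and 43.7 RPKM in the liver metastases, and 0.152 RPKM in the PDAC lung metastasis. Both genes were highest in liver metastasis 5. Pdk1, the kinase that shuts pyruvate out of the mitochondrial citrate cycle, read 3.07 and 3.83 RPKM in the BC primaries, against 1.15 and 0.00275 RPKM in BC lung metastasis 4 and 6. In PDAC primary 1 and 5 it read 3.17 and 1.24 RPKM, followed by 0.268 and 2.81 RPKM in the liver metastases, and 8.78 RPKM in the PDAC lung metastasis. BC lung metastasis 6 was the lowest library for Pdk1 and the PDAC lung metastasis the highest.

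**Figure D3:**
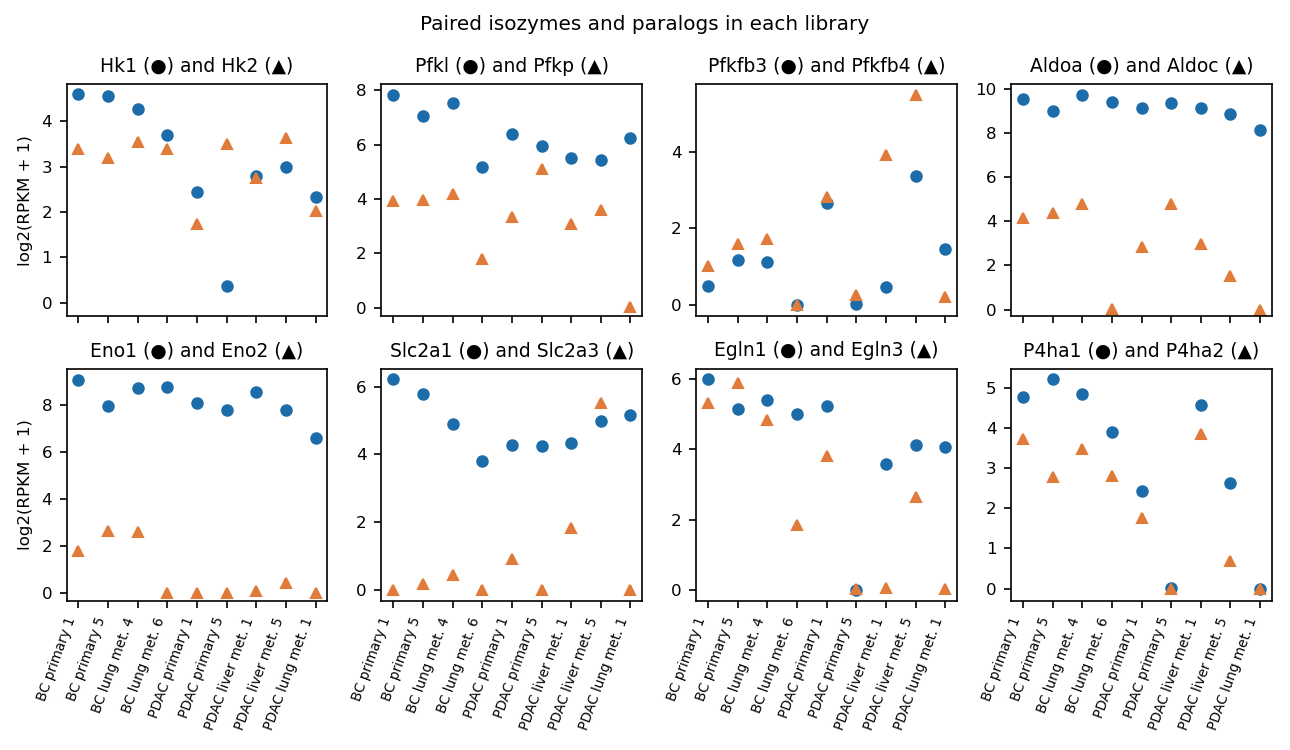
Levels of 8 pairs of isozymes or paralogs in each library as log2(RPKM + 1), with circles for the first and triangles for the second gene named. Aldoa, Eno1 and Pfkl lie above their partners in all 9 libraries, while Hk2 passes Hk1 in both libraries of PDAC mouse 5 and Slc2a3 passes Slc2a1 in PDAC liver metastasis 5.

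Among the transporters, Slc2a1 (GLUT1, the widespread glucose transporter) was measured in all libraries, whereas Slc2a3 (GLUT3, the neuronal and leukocyte form) passed 1 RPKM only in the 2 liver metastases. Slc2a1 read 72.9 and 54.5 RPKM in the BC primaries, against 28.8 and 12.9 RPKM in BC lung metastasis 4 and 6. Its PDAC levels were 18.2 and 18.02 RPKM in primary 1 and 5, 19.3 and 30.6 RPKM in the liver metastases and 34.9 RPKM in the PDAC lung metastasis. Slc2a3 read 0.0148 and 0.135 RPKM in the BC primaries, 0.370 and 0.00295 RPKM in BC lung metastasis 4 and 6, 0.891 RPKM in PDAC primary 1, 2.56 and 44.9 RPKM in liver metastasis 1 and 5, and was listed at 0 in PDAC primary 5 and the PDAC lung metastasis. It exceeded Slc2a1 in liver metastasis 5 alone. Slc16a3 (MCT4, the exporter of lactate) read 1.24 and 1.39 RPKM in the BC primaries, 3.35 RPKM in BC lung metastasis 4, 5.70 and 0.0120 RPKM in PDAC primary 1 and 5, 22.3 and 62.5 RPKM in the liver metastases and 38.7 RPKM in the PDAC lung metastasis, and was listed at 0 in BC lung metastasis 6. All 3 PDAC metastases lay above every other library for this gene.

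Of the oxygen sensors, Egln1 (PHD2, the main HIF prolyl hydroxylase) read 62.5 and 34.5 RPKM in the BC primaries, against 41.6 and 31.0 RPKM in the BC lung metastases. Among the PDAC libraries it read 36.7 and 0.00908 RPKM in primary 1 and 5, 10.9 and 16.6 RPKM in the liver metastases and 15.8 RPKM in the PDAC lung metastasis. Egln3 (PHD3, itself a strongly hypoxia-induced gene) read 38.6 and 58.4 RPKM in the BC primaries, against 27.8 and 2.60 RPKM in BC lung metastasis 4 and 6. The PDAC primaries 1 and 5 read 13.1 and 0.0240 RPKM, followed by 0.0435 and 5.25 RPKM in the liver metastases and 0.0294 RPKM in the PDAC lung metastasis. Egln1 exceeded Egln3 in 7 of 9 libraries. The exceptions were BC primary 5 and PDAC primary 5, and in the latter both genes were near 0. The transcriptional repressor Mxi1 spanned 0 to 20.9 RPKM and the ankyrin repeat gene Ankrd37 0 to 26.7 RPKM, and both were listed at 0 in a library with few genes. Ddit4 (REDD1, an inhibitor of mTORC1) read 40.5 and 60.3 RPKM in the BC primaries, against 50.5 and 5.67 RPKM in BC lung metastasis 4 and 6. For PDAC, the levels were 20.3 and 13.2 RPKM in primary 1 and 5, 10.2 and 36.6 RPKM in the liver metastases, and 66.1 RPKM in the PDAC lung metastasis. Kdm3a, a histone demethylase, read 2.74 and 9.64 RPKM in the BC primaries, against 2.39 and 0 RPKM in BC lung metastasis 4 and 6. In PDAC primary 1 and 5 it read 4.90 and 19.9 RPKM, followed by 0.175 and 4.50 RPKM in the liver metastases, and 0 RPKM in the PDAC lung metastasis. Ddit4 was thus measured everywhere, while Kdm3a was listed at 0 in 2 lung metastases and was highest in PDAC primary 5.

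The pH-regulating carbonic anhydrases had their highest levels in BC libraries. Car9 (CAIX, a cell-surface enzyme often used as a marker of tumour hypoxia) read 124 and 79.8 RPKM in the BC primaries, against 122 and 0.409 RPKM in BC lung metastasis 4 and 6. Its PDAC levels were 21.7 and 67.6 RPKM in primary 1 and 5, 39.3 and 1.36 RPKM in liver metastasis 1 and 5, and 0.0340 RPKM in the PDAC lung metastasis. Car12 (CAXII) read 6.07 and 8.58 RPKM in the BC primaries, 2.90 and 0.151 RPKM in BC lung metastasis 4 and 6, 0.0374 RPKM in PDAC primary 1, 0.0666 RPKM in liver metastasis 5, and was listed at 0 in the other 3 PDAC libraries. The 2 BC lung metastases lay at opposite ends for Car9, so its group value there is carried by library 4. Of the secreted factors, Vegfa, the vascular growth factor, spanned 6.52 to 31.2 RPKM. Adm, the vasodilator peptide adrenomedullin, read 26.4 and 15.6 RPKM in the BC primaries, against 25.6 and 0 RPKM in BC lung metastasis 4 and 6. Among the PDAC libraries it read 9.34 and 0 RPKM in primary 1 and 5, 22.2 and 2.93 RPKM in the liver metastases, and 41.5 RPKM in the PDAC lung metastasis, its highest level.

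Of the mitochondrial and stress genes, Bnip3, a mitophagy receptor, read 64.3 and 27.2 RPKM in the BC primaries, against 46.0 and 13.1 RPKM in the BC lung metastases. The PDAC primaries 1 and 5 read 93.2 and 0.0564 RPKM, followed by 49.3 and 48.4 RPKM in the liver metastases and 20.1 RPKM in the PDAC lung metastasis. Higd1a, a small protein of the respiratory chain, read 33.8 and 14.96 RPKM in the BC primaries, against 48.5 and 26.8 RPKM in BC lung metastasis 4 and 6. For PDAC, the levels were 37.6 and 33.6 RPKM in primary 1 and 5, 69.9 and 26.1 RPKM in the liver metastases, and 28.3 RPKM in the PDAC lung metastasis. It was steadier across libraries than Bnip3, as was Ero1l, the oxidase of disulfide formation in the endoplasmic reticulum, at 6.84 to 26.4 RPKM. Ndrg1 read 55.6 and 39.2 RPKM in the BC primaries, against 54.1 and 5.92 RPKM in BC lung metastasis 4 and 6. In PDAC primary 1 and 5 it read 4.67 and 0.213 RPKM, followed by 0.676 and 5.59 RPKM in the liver metastases and 0.0119 RPKM in the PDAC lung metastasis. All 4 BC libraries lay above all 5 PDAC libraries for Ndrg1.

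Of the collagen-modifying enzymes, P4ha1 and Plod2 also had their highest levels in BC libraries. P4ha1, the catalytic subunit of collagen prolyl 4-hydroxylase, read 26.4 and 36.2 RPKM in the BC primaries, against 28.1 and 14.0 RPKM in the BC lung metastases. Its PDAC levels were 4.44 and 0.00776 RPKM in primary 1 and 5, 23.0 and 5.25 RPKM in liver metastasis 1 and 5, and it was listed at 0 in the PDAC lung metastasis. Its paralog P4ha2 read 12.3 and 5.84 RPKM in the BC primaries, against 10.3 and 5.95 RPKM in BC lung metastasis 4 and 6. Among the PDAC libraries it read 2.38 and 0 RPKM in primary 1 and 5, 13.6 and 0.608 RPKM in the liver metastases, and 0 RPKM in the PDAC lung metastasis, and never exceeded P4ha1. Plod2, the lysyl hydroxylase of collagen crosslinks, read 5.68 and 12.0 RPKM in the BC primaries, 5.54 and 1.01 RPKM in the BC lung metastases, 0.310 RPKM in PDAC primary 1, 0.0921 RPKM in liver metastasis 5, and was listed at 0 in the other 3 PDAC libraries. Lox, the secreted lysyl oxidase, read 0.541 and 1.03 RPKM in the BC primaries, against 0.0499 and 0 RPKM in BC lung metastasis 4 and 6. The PDAC primaries 1 and 5 read 0 and 8.25 RPKM, followed by 0 and 0 RPKM in the liver metastases, and 0 RPKM in the PDAC lung metastasis. It passed 1 RPKM in BC primary 5 and PDAC primary 5 only, and 4 of the 5 metastases listed it at 0.

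**Figure D4:**
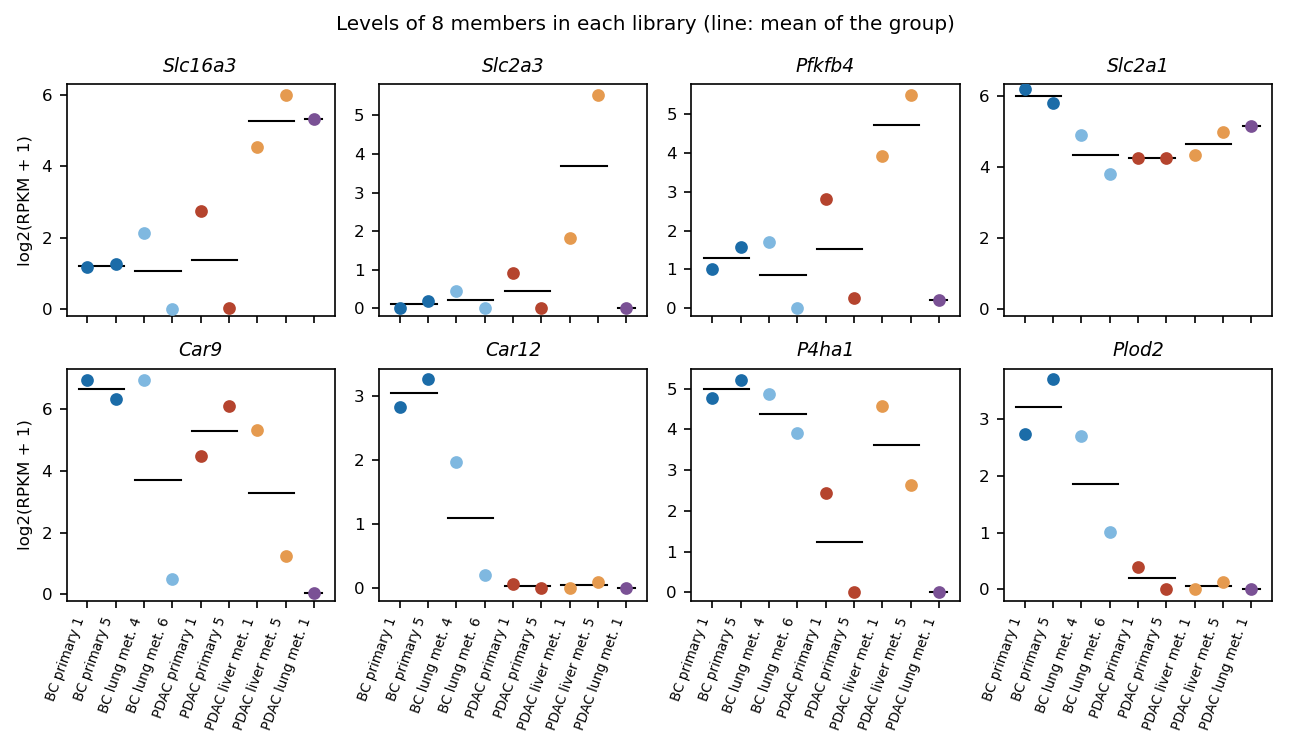
Levels of 8 members in each library as log2(RPKM + 1), 1 point per library, with colours by tumour model and site and a line at the mean of each group. Slc16a3 is high in all 3 PDAC metastases (22.3 to 62.5 RPKM), whereas Car12 and Plod2 are near 0 in all PDAC libraries.

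BC lung metastases were compared with BC primary tumours to ask how the genes differed at the metastatic site in 4T1-derived cells. In limma's fit of log2(RPKM + 1) over 12832 genes, 29 of 38 genes had lower and 9 had higher mean levels in the lung metastases, with a median log2 difference of -0.61 against -0.29 over all genes tested, of which 63.1% were lower and 35.6% higher. No member was called at a Benjamini-Hochberg adjusted p under 0.05, and neither was any gene (0%). At an unadjusted p under 0.05 stood 1 member, Car12, which was lower (1.18% of all genes were lower by that rule). Its log2 difference was -1.96 (SE 0.76, limma adjusted p = 0.974), and its 2 metastasis libraries lay below both primaries. Next came Slc2a1 at -1.65 (SE 0.80, limma adjusted p = 0.974) and Pdk1 at -1.59 (SE 0.98, limma adjusted p = 0.974), both without overlap of the libraries. Libraries did not overlap for 9 genes lower in the metastases (27% of all genes), namely Car12, Slc2a1, Pdk1, Hk1, Egln3, Kdm3a, Mxi1, Plod2 and Lox, and for 1 gene that was higher, Ankrd37 (15.8% of all genes). Of the 9, Lox passed the filter only through BC primary 5 and PDAC primary 5.

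The positive differences were small, the largest being that of Ankrd37 at 0.86. Gapdh differed by 0.69 (SE 0.58), Higd1a by 0.65 (SE 0.84) and Aldoa by 0.29 (SE 0.49) on the log2 scale, each with a limma adjusted p of 0.974. Under quantile scaling, which moved the median of all genes from -0.29 to 0.07, the Gapdh and Aldoa differences became negative (-0.12 and -0.50), so no direction is given for them. Without BC lung metastasis 6 the median over the members was 0.19, of the opposite sign, against -0.018 over all genes. The neutrophil markers summed to 28.6 and 28.7 RPKM in the primaries and 2526 and 1541 RPKM in lung metastasis 4 and 6, and the 7 lung epithelial markers to 0.925 and 0.848 RPKM against 29.0 and 25.3 RPKM, and their part in these differences was not tested.

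PDAC liver metastases were compared with PDAC primary tumours from the same 2 mice, as the labels describe the metastases as matched. Mean levels were higher in the liver metastases for 27 of 38 genes and lower for 11, with a median log2 difference of 0.37 against 0.08 over all genes, of which 53.9% were higher and 45.4% lower. Rescaled without haemoglobin, 21 were higher and 17 lower with a median of 0.048, against -0.11 and 44.6% higher over all genes. With 1 library left out, the median ran from 0.10 (without PDAC primary 5, all genes -0.13) to 0.64 (without PDAC primary 1, all genes 0.53). No member was called by limma at an adjusted p under 0.05 (0.00779% of all genes, which is 1 gene), and 3 stood at an unadjusted p under 0.05, all higher (4.89% of all genes were higher and 1.5% lower by that rule). These were Slc16a3 at a log2 difference of 3.88 (SE 1.31, limma adjusted p = 0.547), Slc2a3 at 3.22 (SE 1.08, limma adjusted p = 0.547) and Pfkfb4 at 3.17 (SE 1.21, limma adjusted p = 0.636). Of these, Slc2a3 reached 1 RPKM only in the 2 liver metastases. It passed the filter through the group where it is high, so its direction and library order are not independent of the filter. For each of the 3 genes both metastases exceeded both primaries, and liver metastasis 5 was the highest of all 9 libraries. Liver metastasis 5 also held the highest neutrophil marker sum, 217610 RPKM against 8801 RPKM in liver metastasis 1 and 1294 and 367 RPKM in PDAC primary 1 and 5. In primary 5, Ltf alone gave 352 of the 367 RPKM, and Cxcr2 and Csf3r were listed at 0. The tumour epithelial markers of liver metastasis 5 summed to 241 RPKM, against 6656 RPKM in liver metastasis 1 and 2223 and 15975 RPKM in the primaries. The 10 macrophage and monocyte markers summed to 12347 and 11658 RPKM in liver metastasis 1 and 5 and 12432 RPKM in the PDAC lung metastasis, against 2818 and 941 RPKM in PDAC primary 1 and 5, and Csf1r, Adgre1 and Mrc1 were listed at 0 in primary 5. The part of these cells in the 3 genes was not tested, and in liver metastasis 1, with the smaller neutrophil sum, Slc16a3 read 22.3, Slc2a3 2.56 and Pfkfb4 14.2 RPKM.

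Libraries did not overlap for 9 genes higher in the liver metastases (15.4% of all genes) and 2 lower (10.2%). The higher genes were the transporters Slc2a1, Slc2a3 and Slc16a3, the enzymes Hk1, Gpi1, Ldha and Eno2, the regulator Pfkfb4 and P4ha1, and Pkm2 had the same order. Eno2 stayed near 0, at 0.00452 and 0 RPKM in the primaries and 0.0615 and 0.345 RPKM in the liver metastases. Gpi1, phosphoglucose isomerase, stood at 146 and 75.6 RPKM in the BC primaries, 149 and 53.1 RPKM in BC lung metastasis 4 and 6, 112 RPKM in the PDAC lung metastasis, 98.4 and 82.2 RPKM in the primaries and 117 and 491 RPKM in liver metastasis 1 and 5 (log2 difference 1.40, SE 0.82). Ldha differed by 0.91 (SE 0.54) and Pkm2 by 0.78 (SE 0.65), neither of which passed the test. The lower genes were Pfkl (-0.68, SE 0.82) and Kdm3a. Kdm3a stood at 4.90 and 19.9 RPKM in PDAC primary 1 and 5 and 0.175 and 4.50 RPKM in liver metastasis 1 and 5 (-2.13, SE 1.23, limma adjusted p = 0.857). Car9 had the next lowest value at -2.02 (SE 1.93, limma adjusted p = 0.906), with the libraries overlapping. Lox was listed at 0 in both liver metastases and in PDAC primary 1, so its value (limma adjusted p = 0.850) rests on PDAC primary 5.

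Leaving out PDAC primary 1 changed the calls. The 2 liver metastases then stood against primary 5 alone, assumed to vary like the other groups, and limma called 1032 of 12278 genes (8.41%) and 4 of 38 members (10.5%): Slc16a3 at 5.25 (adjusted p = 0.0353), Bnip3 at 5.56 (adjusted p = 0.0121), Egln1 at 3.84 (adjusted p = 0.0291) and Lox (adjusted p = 0.0185). In that fit the remaining primary, number 5, was 0.0120 RPKM for Slc16a3, 0.0564 RPKM for Bnip3 and 0.00908 RPKM for Egln1. Lox was the lower one, at -3.21, and read 8.25 RPKM in primary 5. It passed the filter through primaries alone, so its direction is not independent of the filter. Over 18 alternatives the adjusted p of Slc16a3 ran from 0.0353 to 1, that of Bnip3 from 0.0121 to 1 and that of Egln1 from 0.0291 to 1. Over 13 alternatives that of Lox ran from 0.0185 to 1. For Bnip3 and Egln1 the sign also depended on the primary used. In primary 1, 93.2 RPKM for Bnip3 and 36.7 RPKM for Egln1 lay above both liver metastases.

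**Figure D5:**
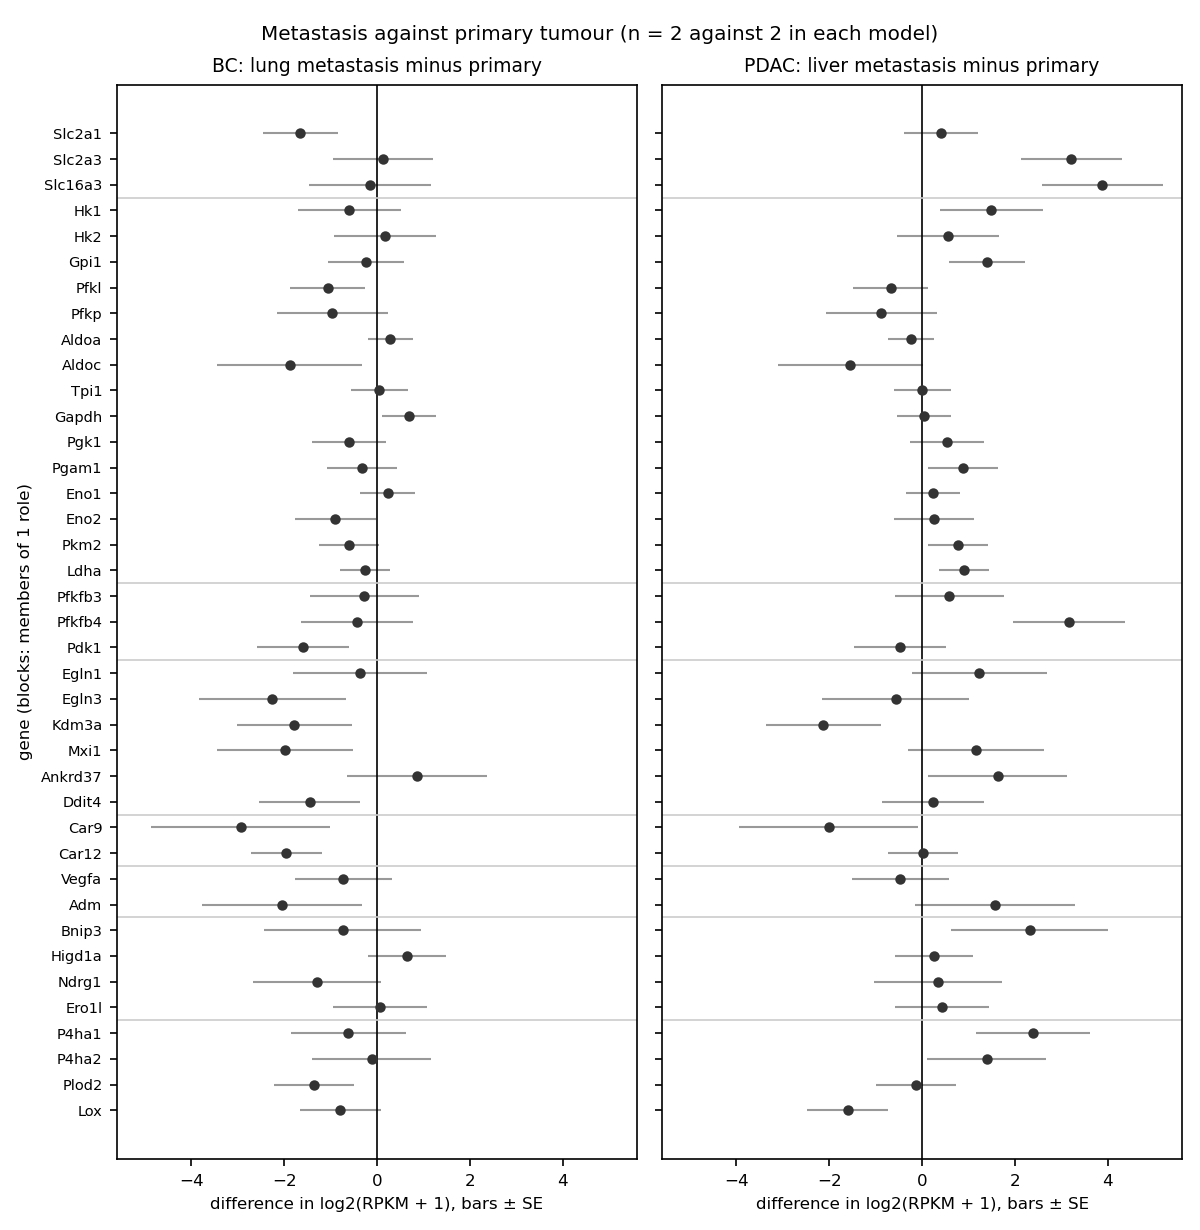
Fitted log2(RPKM + 1) differences between metastasis and primary tumour for the 38 members and Pkm2, with bars of 1 standard error and blocks by role, in BC (left, lung) and PDAC (right, liver), with 2 libraries against 2 in each. Slc16a3, Slc2a3 and Pfkfb4 stand highest in the right panel (3.88, 3.22 and 3.17), and most points of the left panel lie below 0 (29 of 38).

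Against the same 2 PDAC primaries, the lung metastasis of mouse 1 was compared without a replicate of its own, and its spread was taken to equal that of the other groups. Its median log2 difference over the members was -0.39 against -0.50 over all genes, with 14 higher and 24 lower, and 63% of all genes were lower. No member was called by limma (0.584% of all genes, 75 genes). Slc16a3 was higher at an unadjusted p under 0.05 (5.78% of all genes), and Tpi1, Gapdh, Pfkp and Kdm3a were lower (7.97% of all genes). Slc16a3 differed by 3.93 (SE 1.60, limma adjusted p = 0.311), followed by Adm at 3.72 (SE 2.12) and Ddit4 at 1.95 (SE 1.34). Tpi1 differed by -2.80 (SE 0.75, limma adjusted p = 0.127), Gapdh by -2.23 (SE 0.71, limma adjusted p = 0.199) and Pfkp by -4.18 (SE 1.47, limma adjusted p = 0.244). Kdm3a was listed at 0 in the lung metastasis (limma adjusted p = 0.347).

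By order of the libraries alone, the lung metastasis lay above both primaries for 7 members (23.9% of all genes) and below both for 14 (34.4%). Of the 14 glycolytic enzymes counted, 8 lay below both primaries (Aldoa, Aldoc, Tpi1, Gapdh, Pgk1, Eno1, Ldha and Pfkp) and 1 above both (Gpi1, at 112 RPKM). Of the 3 transporters, Slc2a1 and Slc16a3 lay above both. RNA of other cells was also high in this library: erythroid markers summed to 360125 RPKM, lung epithelial markers to 35988 RPKM and tumour epithelial markers to 132 RPKM, against 61293 and 276, 2.16 and 462, and 2223 and 15975 RPKM in PDAC primary 1 and 5. The 462 RPKM of primary 5 were almost all Sftpd (461.9 RPKM), with Sftpc at 0.278 RPKM. The part of the RNA of other cells was not tested. Without PDAC primary 1, 1 library stood against 1. It was the lung metastasis of mouse 1 against the primary of the other mouse, which differs in age and in the SIRT6 label. All spread was taken from the other groups, and Lox passed the filter through primaries alone. That fit called 5 of 38 members (13.2%), Slc16a3, Bnip3, Egln1, Pfkp and Lox, and 1547 of 12278 genes (12.6%), so the members' share was near that of all genes.

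The primaries of the models were compared as a background for the metastasis effects. The median log2 difference was -0.63 over the 38 members (29 lower, 9 higher), -0.48 over the 20 genes of glycolysis and its transport and regulation, and -2.09 over the 18 other hypoxia targets, against -0.31 over all genes, of which 58.4% were lower and 41.4% higher. The median over the members was -1.14 without BC primary 5 (37 members), against -0.23 over all genes, and -1.12 against -0.77 without PDAC primary 1. Under quantile scaling it was -1.31 (27 lower, 11 higher) against 0.05, with 51.4% of all genes higher. Rescaled without haemoglobin, it was -1.39 against -0.88. Of the 18 other hypoxia targets, 11 were under 1 RPKM in PDAC primary 5, a library with few genes above 0, and 3 in PDAC primary 1. No member was called by limma at an adjusted p under 0.05 (0.0312% of all genes, 4 genes), and 8 stood at an unadjusted p under 0.05, all lower (9.43% of all genes were lower and 3.76% higher by that rule). By role these were the enzymes Hk1, Ldha and Eno2, the oxygen sensor Egln3, Car12, Ndrg1, and the collagen enzymes P4ha1 and Plod2. The smallest p belonged to Car12 at -3.01 (SE 0.76, limma adjusted p = 0.190), Plod2 at -3.03 (SE 0.87, limma adjusted p = 0.221) and P4ha1 at -3.77 (SE 1.24, limma adjusted p = 0.266). Ndrg1 (-4.19, SE 1.38), Hk1 (-3.18, SE 1.11), Ldha (-1.48, SE 0.54), Eno2 (-2.20, SE 0.87) and Egln3 (-3.68, SE 1.59) had adjusted p of 0.269 to 0.361 by limma. Car12, Plod2 and Eno2 reached 1 RPKM only in BC libraries and passed the filter through them alone. Their lower level in the PDAC primaries is therefore not independent of the filter.

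The PDAC primaries lay below both BC primaries without overlap for 16 members (31.5% of all genes) and above both for none (15.7%). The lower members included Car12, Plod2 and Eno2, which passed the filter through BC libraries alone. Of the positive differences, Gapdh stood at 0.76 (SE 0.58), Lox at 0.78 (SE 0.88) and Higd1a at 0.63 (SE 0.84), and that of Gapdh became -0.020 under quantile scaling. Without PDAC primary 1, primary 5 stood alone against the 2 BC primaries, and limma called 803 of 12278 genes (6.54%) and 4 of 38 members (10.5%), all lower: Hk1 (-4.22, adjusted p = 0.0363), Bnip3 (-5.35, adjusted p = 0.0143), Egln1 (-5.56, adjusted p = 0.0101) and P4ha1 (-4.99, adjusted p = 0.0331), and over 18 alternatives the adjusted p of each reached 0.986. The cells also differed in more than the tumour type, since the BC cells came from 1 cultured line and the PDAC cells arose in transgenic mice.

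Whether the metastasis effect differed between the models was tested as an interaction, the PDAC liver effect minus the BC lung effect. The difference of effects was positive for 32 of 38 members, with a median of 1.16 against 0.53 over all genes, of which 62.6% were positive. No member was called by limma at an adjusted p under 0.05, nor was any gene (0%). At an unadjusted p under 0.05 stood 0 members (3.34% of all genes positive, 0.787% negative). Among the positive values, the smallest unadjusted p belonged to Slc16a3 at 4.03 (SE 1.85), Pfkfb4 at 3.61 (SE 1.71) and Slc2a3 at 3.09 (SE 1.53). Each had a limma adjusted p of 0.874. Slc2a3 passed the filter only through the PDAC liver metastases, so its value is not independent of the filter. Without the 3 libraries with the fewest genes, which leaves 1 library in each of 2 groups, the median became -0.089, against -0.15 over all genes. Since the primaries enter both the site comparisons and the model comparison, the values of these comparisons are not independent of each other.

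Over both models together, with the model as a covariate, 5 metastases were compared with 4 primaries. Mean levels were higher for 17 members and lower for 21, with a median of -0.12 against -0.16 over all genes, of which 59.1% were lower and 40.9% higher. Rescaled without haemoglobin, 10 were higher and 28 lower with a median of -0.55, against -0.48 and 27.2% higher over all genes. With 1 library left out, the median ran from -0.44 to 0.21, so no direction is given. The low end was without PDAC primary 5 (6 higher and 31 lower of 37, all genes -0.37 with 32.2% higher). The high end was without BC lung metastasis 6 (21 higher and 17 lower, all genes -0.049 with 47.15% higher). No member was called by limma (0.00779% of all genes, 1 gene), no member's libraries were without overlap (0.366% of all genes higher, 0.538% lower), and 3 members stood at an unadjusted p under 0.05, all lower (2.7% of all genes; 2.19% were higher). These were Kdm3a at -2.21 (SE 0.82, limma adjusted p = 0.853), Car9 at -3.02 (SE 1.31, limma adjusted p = 0.853) and Lox at -1.23 (SE 0.55, limma adjusted p = 0.853). Lox reached 1 RPKM only in BC primary 5 and PDAC primary 5. It passed the filter through primaries alone, so its direction is not independent of the filter. Among the members with higher levels, the smallest unadjusted p belonged to Slc16a3 at 2.06 (SE 1.02), Slc2a3 at 1.15 (SE 0.92) and Gpi1 at 0.46 (SE 0.58). Of these, Slc2a3 passed the filter only through the PDAC liver metastases.

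The regulators of HIF were read beside its targets. Hif1a, the oxygen-regulated subunit, read 14.1 and 21.5 RPKM in the BC primaries, against 5.01 and 2.46 RPKM in the BC lung metastases. For PDAC, the levels were 3.50 and 2.26 RPKM in primary 1 and 5, 2.99 and 6.67 RPKM in the liver metastases and 5.85 RPKM in the PDAC lung metastasis. It was lower in the BC lung metastases by a log2 difference of -2.01 (SE 1.06, limma adjusted p = 0.974) and in the PDAC primaries than in the BC primaries by -2.26 (SE 1.06, limma adjusted p = 0.401), neither passing the test. Epas1 (HIF-2 alpha) read 0.00449 and 0.0848 RPKM in the BC primaries, against 0.0760 and 0 RPKM in BC lung metastasis 4 and 6. In PDAC primary 1 and 5 it read 0 and 3.93 RPKM, followed by 0 and 0.129 RPKM in the liver metastases, and 23.8 RPKM in the PDAC lung metastasis, so only PDAC primary 5 and the PDAC lung metastasis passed 1 RPKM. Its difference in the lung metastasis was 3.48 (SE 0.97, limma adjusted p = 0.143), in a library whose endothelial marker sum was 607 RPKM against 0.0089 to 37.6 RPKM in the others, and the part of endothelial cells was not tested. Arnt, the constant partner of both subunits, read 2.66 and 5.12 RPKM in the BC primaries, against 2.34 and 2.73 RPKM in BC lung metastasis 4 and 6. Its PDAC levels were 1.70 and 0.455 RPKM in primary 1 and 5, 0.0796 and 4.29 RPKM in the liver metastases, and 1.81 RPKM in the PDAC lung metastasis. Vhl, which recognises hydroxylated HIF, read 6.52 and 9.23 RPKM in the BC primaries, against 8.93 and 7.09 RPKM in BC lung metastasis 4 and 6. Among the PDAC libraries it read 7.17 and 68.9 RPKM in primary 1 and 5, 15.8 and 11.4 RPKM in the liver metastases, and 0 RPKM in the PDAC lung metastasis. PDAC primary 5 stood highest for Vhl and the lung metastasis of mouse 1 lowest. Of 12 tested regulators, limma called 0 in any of the comparisons. At an unadjusted p under 0.05 stood 1 in the BC lung metastases (Tceb2, elongin B, higher), 0 in the PDAC liver metastases, 2 in the PDAC lung metastasis (Epas1, higher, and Vhl, lower) and 1 in the PDAC against the BC primaries (Cul2, a cullin of the Vhl complex, lower).

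Other genes of the pathways were read from lists that do not contain the members, in the PDAC liver comparison first. Of 12 tested glycolysis genes beside the members, 4 were higher and 1 lower at an unadjusted p under 0.05 by limma (4.89% and 1.5% of all genes), and none was called. Hk3, a hexokinase of leukocytes, read 0.750 RPKM and 0 in the primaries and 5.53 and 51.2 RPKM in the liver metastases (log2 difference 3.80, SE 1.24, limma adjusted p = 0.521). Also at that level were Bpgm, the red cell enzyme of 2,3-bisphosphoglycerate, and Adpgk, an ADP-dependent glucokinase, both higher, and Tigar, a fructose bisphosphatase, which was lower (-2.58, SE 1.05, limma adjusted p = 0.717). The next negative value was that of the transporter Slc2a8 (-1.53, SE 1.04). Bpgm read 333 and 0.0712 RPKM in PDAC primary 1 and 5 and 1527 and 708 RPKM in the liver metastases, and erythroid markers summed to 61293 and 276 RPKM against 360001 and 201142 RPKM there, the part of which was not tested.

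In the same comparison, 4 gluconeogenesis genes were tested, and 1 stood at an unadjusted p under 0.05: Fbp1, fructose bisphosphatase of liver, at 4.41 RPKM and 0 in the primaries and 85.1 and 34.5 RPKM in the liver metastases (log2 difference 4.57, SE 1.06, limma adjusted p = 0.275). Hepatocyte markers summed to 866 and 2283 RPKM in the liver metastases and 1.92 and 248 RPKM in the primaries, with Tat and Cps1 listed at 0 in both primaries. Apoa1 alone gave 245 of the 248 RPKM in primary 5. The part of hepatocytes in the Fbp1 levels was not tested. Of 10 genes of the pentose phosphate and hexosamine branches, 2 were higher by that rule, G6pdx, its first enzyme (3.75, SE 1.29, limma adjusted p = 0.555), and Taldo1, transaldolase (1.71, SE 0.62, limma adjusted p = 0.592). Of 34 hypoxia targets beside the members, 3 were higher and 1 lower against the same 4.89% and 1.5% of all genes, namely Pygl, liver glycogen phosphorylase (4.42, SE 1.58), the small GTPase gene Rab20 (4.02, SE 1.48), Wsb1 and, lower, Loxl2, a lysyl oxidase relative (-2.50, SE 1.08). Of 27 genes of pyruvate entry and the citrate cycle, 0 stood at an unadjusted p under 0.05 in either direction, and 0 were called by limma. G6pdx, Hk3 and Pygl were each highest in liver metastasis 5, as were Slc2a3, Slc16a3, Pfkfb4 and Gpi1.

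The PDAC lung metastasis, 1 library without a replicate, had no called gene in these lists by limma. At an unadjusted p under 0.05 stood 3 higher and 4 lower of 12 other glycolysis genes and 5 higher and 5 lower of 34 other hypoxia targets, where 5.78% of all genes were higher and 7.97% lower. Of the 10 pentose phosphate and hexosamine genes 1 was higher and 1 lower, of the 27 pyruvate and citrate cycle genes 1 was higher and 3 lower, and of the 4 gluconeogenesis genes 0 passed. In the BC lung metastases, Apln, the vascular peptide apelin, was the 1 of 34 other hypoxia targets at an unadjusted p under 0.05, at 7.09 and 10.0 RPKM in the primaries and 2.04 RPKM and 0 in lung metastasis 4 and 6 (log2 difference -2.44, SE 0.74, limma adjusted p = 0.974; 1.18% of all genes were lower by that rule). In the PDAC primaries against the BC primaries, 7 of the 34 were lower and 2 higher by that rule, against 9.43% and 3.76% of all genes. The lower ones included Apln, which was listed at 0 in both PDAC primaries and passed the filter through BC libraries alone. Errfi1, an inhibitor of EGF receptor signalling, was also lower (-4.11, SE 0.97, limma adjusted p = 0.160). The higher ones were Cxcr4, a chemokine receptor (3.82, SE 1.12, limma adjusted p = 0.226), and Selenbp1 (3.71, SE 1.10, limma adjusted p = 0.230). Cxcr4 is also a leukocyte gene, and the B, plasma and T cell markers summed to 31034 RPKM in PDAC primary 1 against 2.05 RPKM in PDAC primary 5, where Cxcr4 read 13.7 RPKM.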

How the data were processed

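The libraries were made, per the labels' protocols, from column-purified RNA with a low-input full-length cDNA kit and tagmentation, which does not mark strand. The submitters' processing notes name the build mm9. For the aligner, the counter and the annotation, the entry is not given in the sources used here. A single table holds all libraries. The table the authors deposited is named CPM, but its low values are whole multiples of 1 step per library (within 0.02) only after multiplication by gene length, in 62.7 to 74.1% of them against 4.53 to 7.11% without, so the deposited values were read as RPKM.

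Libraries were grouped by model and site from the labels. A gene was tested if 2 or more of the 9 libraries reached 1 RPKM, which left 12832, on log2(RPKM + 1), by limma (version 3.58.1, run under R 4.3.3 using statmod version 1.5.0) with trend and robust moderation and 1 mean per group. The p-values are two-sided and were adjusted by Benjamini and Hochberg's method over all genes tested. On this scale the change of low genes is understated. The procedure was tested on simulated data. The labels do not say that the BC libraries come from separate animals, so a p-value reflects only how far these libraries spread, which may be technical. The PDAC numbers 1 and 5 each share an age and a genotype and were taken to pair libraries by mouse, although deviations from the group means of same-numbered primaries and liver metastases correlated at -0.165 over the 12832 genes. The members and the gene lists were chosen with earlier results of these data known. Values in every library are given for the 3 members per direction with the smallest p in each comparison, for the 8 isozyme and paralog pairs and for 4 HIF regulators. Genes of the other lists are given by their differences and by values in the libraries compared where a result turns on them, which is narrower than planned, and further members were named after their values were seen. A result on 1 gene of these lists is not reported here. Alternatives were another pseudocount (0.1), no filter or a filter at 5 RPKM, quantile scaling, rescaling without haemoglobin, no moderation options, only the groups compared, a replicate block, and leaving out single libraries or the 3 with the fewest genes. Rescaling without haemoglobin removed those genes and then scaled every library to the same sum.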

Additional observations from a re-analysis of the deposited data

Results flagged for a closer look

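In 2 members every BC lung metastasis library lay below both BC primaries while every PDAC liver metastasis library lay above both PDAC primaries. These were 2 of 38 (5.26%), and 541 of 12832 tested genes (4.22%) had the same order, a share near that of the members. Slc2a1, the widespread glucose transporter, had a log2 difference of -1.65 (SE 0.80) in the BC lung metastases and 0.40 (SE 0.80) in the PDAC liver metastases, a difference of effects of 2.06 (SE 1.14, limma adjusted p = 0.874). Hk1, the hexokinase of most adult cells, had -0.60 (SE 1.11) and 1.49 (SE 1.11), a difference of effects of 2.08 (SE 1.57, limma adjusted p = 0.874). The opposite order of the libraries itself was not tested, and the interaction did not pass the threshold for either gene.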

How the results depend on the processing

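Of 102 summary values recomputed under settings other than leaving out 1 library, 99 stayed within 1.5 times a count or the spread between libraries of a median. The others were the median over the members in the BC lung metastases without the 3 libraries with the fewest genes (0.20), in the PDAC against the BC primaries rescaled without haemoglobin (-1.39), and for the interaction without those 3 libraries (-0.089). This says little on robustness, since every count of called members was 0 in these settings. A median could also move by up to 0.72, which is more than most of the medians. Changes of sign therefore passed, as in the PDAC lung metastasis (-0.39 to 0.085, only the groups compared) and the pooled comparison (-0.12 to 0.10, without those 3 libraries). Leaving out each library in turn moved the median from -1.24 to 0.19 in the BC lung metastases (0.19 without lung metastasis 6) and from 0.34 to 1.83 for the interaction (0.34 without it). The number of called members ran from 0 to 4 in the PDAC liver metastases, from 0 to 5 in the PDAC lung metastasis and from 0 to 4 in the PDAC against the BC primaries, each highest without PDAC primary 1. Reversed values were Gapdh (-0.12) and Aldoa (-0.50) in the BC lung metastases and Gapdh in the PDAC against the BC primaries (-0.020) under quantile scaling, and Aldoa in the BC lung metastases rescaled without haemoglobin (-0.20). Car9 in the PDAC liver metastases ran from -4.06 to 0.030 (0.030 without liver metastasis 5) and Gapdh in the interaction from -1.32 to 0.022 (0.022 without BC primary 5). The causes of these moves were not tested, beyond the smaller number of libraries. With a replicate block for the PDAC mice, no member was called, and the medians were 0.37, -0.40, -0.63, 1.16 and -0.09 for the PDAC liver, PDAC lung, PDAC against BC, interaction and pooled comparisons. No paired analysis was possible for the BC groups because they share no numbers.

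Counts of all called genes ran, without a library left out, from 0 to 73 in the BC lung metastases (0 as reported), 0 to 2 in the PDAC liver metastases (1), 0 to 270 in the PDAC lung metastasis (75) and 0 to 72 in the PDAC against the BC primaries (4), and with 1 library left out up to 0, 1032, 1547 and 803. Members at an unadjusted p under 0.05 and lower in the BC lung metastases numbered 1 as reported and up to 9 without lung metastasis 4. Quantile scaling moved the median of all genes in the PDAC lung metastasis from -0.50 to -0.05 and rescaling without haemoglobin moved it in the PDAC against the BC primaries from -0.31 to -0.88. The single PDAC lung metastasis and groups of 2 limit the precision, and genes near 0 in the shallow libraries rest on few reads.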
